A study of Homo sapiens with 6 samples.

Results

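The S100 genes described here are S100A1, S100A2, S100A4, S100A6, S100A9, S100A10, S100A11, S100A13, S100A14 and S100P, 10 of the 60664 genes in the deposited count table. They were found by gene symbol, and the list was chosen on their measured values in the same contrast of control and KDM4A plasmid libraries that is described below. Their differences between the groups are therefore given as a description, with the value in every library, and carry no test. S100 genes outside the 10, the genes of proteins that bind S100 proteins, and the genes lying beside the S100 genes were not used to choose them and were tested. These lists too were drawn up with earlier results of these data known, which their adjusted p values do not take into account.

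S100 proteins are small calcium-binding proteins built around a pair of EF-hand motifs, and most work as dimers. Calcium binding opens a hydrophobic surface through which the dimer binds target proteins such as annexins and myosin, and several S100 proteins are also released from cells and bind surface receptors such as RAGE. Most of the human genes lie in a cluster on the long arm of chromosome 1, whereas S100P lies on chromosome 4. In colorectal cancer, S100A4 is best known for its association with metastasis.

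Sequencing covered 6 libraries whose labels name HCT8, a colorectal cancer line of human origin, grown in DMEM with fetal bovine serum. The control group holds 3 libraries of cells labelled wild type and given a control plasmid. The other group holds 3 libraries of cells labelled as overexpressing KDM4A, a histone demethylase, after transfection with a KDM4A plasmid. All 6 carry batch number 1, and neither the time after transfection nor the cells' clonal origin is given in the sources used here.

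Library totals ran from 14284240 to 23905980 counts, and KDM4A itself stood at 42.9 to 45.9 CPM (counts scaled to the library's total) in controls and 152 to 160 CPM in the libraries given its plasmid. Across the 17147 genes with enough counts to test, libraries of the same group correlated at r = 0.9958 to 0.997 and libraries of different groups at 0.9116 to 0.9215. The contrast is broad: 40.0% of tested genes were higher and 38.6% lower with the KDM4A plasmid (edgeR's quasi-likelihood test, threshold 0.05 after Benjamini-Hochberg adjustment). The labels do not say whether a group's libraries are separate cultures, so these tests measure only the spread between the libraries, which may be technical. The labelled cell type was checked against 15 markers of colorectal epithelium, whose summed level was 264.9 to 280 CPM in controls and 3571 to 3825 CPM with the KDM4A plasmid. All 10 of those that could be tested were higher, 1 of which (CDX1) passed the low-count filter through the KDM4A group alone, against a background of 40.0%. EPCAM stood at 18.7 ± 0.992 CPM (SD, n = 3) in the control group and at 330.5 ± 17.8 CPM in the KDM4A group. KRT19 stood at 10.2 ± 0.804 and 253.6 ± 14.02 CPM, and KRT20, CEACAM5, GPA33, TFF3 and MUC2 were at or near 0 in both groups. The summed level of 7 genes listed for embryonic kidney moved the other way, from 2029 to 2428 CPM in controls to 366.7 to 386.3 CPM, most of it IRS4 (2151 ± 201.6 and 323 ± 7.90 CPM). Singly, 5 of the 7 were lower and 2 higher, beside backgrounds of 38.6% and 40.0%. The 2 were SIX2 (0.54 on the log2 scale) and PAX8 (3.80), which passed the filter through the KDM4A group alone. By these markers the control libraries' labelled identity as colorectal cancer cells is in doubt, and in every S100 value below a difference in the cells' identity and a difference by plasmid cannot be told apart. Markers of myeloid cells, which are the usual source of S100A9, summed to 1.19 to 2.01 CPM in controls and 4.07 to 4.66 CPM with the plasmid, with FCGR3A and TYROBP at 0 in all 6 libraries. Of these 12 markers, CD14 (0.636 and 2.32 CPM) and ITGAM (0.0645 and 1.025 CPM) alone could be tested. Both were higher, and both passed the filter through the KDM4A group alone. PTPRC moved the other way (0.2555 and 0.0659 CPM). Fibroblast markers, 9 in all, summed to 21.1 to 22.2 CPM and 14.3 to 16.8 CPM. Of the 5 that could be tested, 2 were lower, 2 did not pass, and 1 (PDGFRB) was higher, through the KDM4A group alone. The part of these differences in the S100 values was not tested, and in bulk RNA fewer cells of a type and less RNA per cell cannot be told apart.

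On GRCh38.p13, the build of the deposited table, 9 of the 10 genes lie on chromosome 1 between positions 151982915 and 153632039, a stretch of 1649 kb. S100A10 and S100A11 sit together at its left end, 38.65 kb apart. A gap of 1310 kb, filled mainly by epidermal genes, separates them from S100A9, S100A6, S100A4, S100A2, S100A14, S100A13 and S100A1. S100P lies on chromosome 4 at 6693878 to 6697170, on the plus strand.

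RefSeq promoters on GRCh38.p14 were matched for 10 of 10 genes, and the 250 bases before each RefSeq start were read on the gene's own strand. The next 5 are shown because they cover large differences and a flat gene: S100A4 and S100A6 lie close together and differed by like amounts, S100A9 started from almost nothing, S100P lies on another chromosome, and S100A13 hardly differed. Capitals mark the TATA box motif TATAAA, the SP/KLF motif GGGCGG or its reverse complement, and the antioxidant response core TGACNNNGC or its reverse complement. All are written 5′ to 3′ and end at the base before the start.
S100A4, minus strand, chr1:153545807-153546056, TATAAA in capitals: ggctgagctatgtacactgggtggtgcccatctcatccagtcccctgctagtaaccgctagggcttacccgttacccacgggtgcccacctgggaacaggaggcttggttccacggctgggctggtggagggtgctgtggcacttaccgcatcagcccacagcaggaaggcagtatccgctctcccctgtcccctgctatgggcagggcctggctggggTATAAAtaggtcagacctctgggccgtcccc
S100A6, minus strand, chr1:153535992-153536241, GGGCGG in capitals: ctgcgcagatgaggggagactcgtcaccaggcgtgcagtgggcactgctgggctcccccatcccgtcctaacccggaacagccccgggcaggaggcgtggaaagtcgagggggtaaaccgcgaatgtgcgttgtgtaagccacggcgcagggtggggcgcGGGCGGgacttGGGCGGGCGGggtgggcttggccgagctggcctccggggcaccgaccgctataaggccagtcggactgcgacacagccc
S100A9, plus strand, chr1:153357604-153357853, TATAAA and the reverse complement of GGGCGG in capitals: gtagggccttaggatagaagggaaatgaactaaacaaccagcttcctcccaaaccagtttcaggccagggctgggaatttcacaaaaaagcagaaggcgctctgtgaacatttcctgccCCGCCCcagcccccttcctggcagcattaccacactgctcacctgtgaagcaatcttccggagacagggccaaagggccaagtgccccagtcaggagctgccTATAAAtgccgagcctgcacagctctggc
S100P, plus strand, chr4:6693628-6693877, TATAAA in capitals: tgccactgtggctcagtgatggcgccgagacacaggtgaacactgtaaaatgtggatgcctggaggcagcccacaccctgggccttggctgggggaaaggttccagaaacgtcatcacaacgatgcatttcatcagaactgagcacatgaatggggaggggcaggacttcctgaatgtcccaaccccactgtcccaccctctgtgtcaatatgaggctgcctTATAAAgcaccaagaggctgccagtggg
S100A13, minus strand, chr1:153634362-153634611, reverse complements of TGACNNNGC and of GGGCGG in capitals: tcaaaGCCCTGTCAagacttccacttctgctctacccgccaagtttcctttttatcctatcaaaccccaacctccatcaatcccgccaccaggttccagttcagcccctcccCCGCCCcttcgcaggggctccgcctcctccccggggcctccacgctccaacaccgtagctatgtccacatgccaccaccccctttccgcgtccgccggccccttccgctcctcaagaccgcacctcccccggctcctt

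TATAAA occurred in the promoters of S100A4, S100A9 and S100P, starting 31, 29 and 28 bases before the start, and in 10.7% of all 35116 promoters on either strand. GGGCGG occurred in S100A6, S100A9, S100A10, S100A11 and S100A13, and in 42.6% of all promoters. The AP-1 motif (TGACTCA or TGAGTCA) occurred in S100A2 and in 4.20% of all promoters, and the NF-kB motif in S100A14 and in 9.96%. TGACNNNGC occurred in S100A13 and S100A14, and in 10.9% of all promoters. The promoters of S100A6 and S100A10 held 24 CpG pairs each, those of S100A2, S100A9, S100A14 and S100P held 4 each, and the median of all promoters was 11. The windows of S100A4 and S100A6, whose differences were nearly equal, held 7 and 24 CpG pairs, and the exact letters TATAAA occurred in that of S100A4 alone. The S100A6 window holds the near match TATAAG, which the search did not take. A match in these windows is a description of the letters, and the RefSeq start of S100A4 lies 4330 bases from the 5′ end of the deposited gene, that of S100A13 3001 bases, that of S100A2 2046 bases and that of S100A11 10903 bases, so these windows may not be the promoters used.

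In 8 of the 10 genes all 3 KDM4A plasmid libraries lay above all 3 controls, and in S100A1 and S100A13 the groups overlapped. Over all tested genes 40.4% lay above in this way, but since the 10 were chosen on this contrast nothing is read from the comparison. All 10 had passed the filter on low counts, S100A9 through the KDM4A plasmid group alone. The median log2 fold change of the 10 was 2.72, beside 0.03 over all tested genes.

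**Figure D1:**
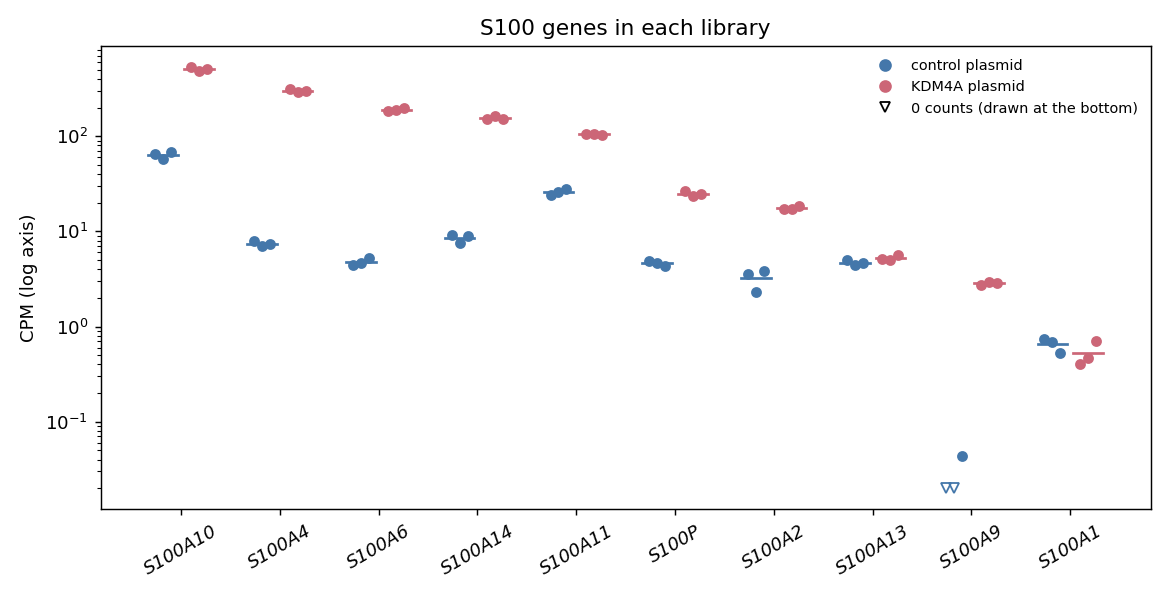
CPM of the 10 S100 genes in each of the 6 libraries, on a log axis, with control libraries and KDM4A plasmid libraries as separate points and short lines at the group means. The groups stand apart in 8 genes and overlap in S100A1 and S100A13, and open triangles at the bottom mark the control libraries with 0 counts of S100A9, whose mean line is not drawn.

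S100A4 and S100A6 differed most among the genes with counts in every library. S100A4, which binds nonmuscle myosin and is linked to cell motility, stood at 7.93, 6.97 and 7.37 CPM in the controls and at 310, 293 and 296 CPM with the KDM4A plasmid. The KDM4A libraries all lay far above the controls and close to each other (coefficient of variation 3.12%), with a mean CPM ratio of 40.4 and a log2 fold change of 5.34 (SE 0.07). S100A6, also called calcyclin, stood at 4.39, 4.69 and 5.31 CPM in controls and at 184, 189 and 198 CPM with the plasmid. Its groups were as far apart, with a mean CPM ratio of 39.6 and a log2 fold change of 5.30 (SE 0.08). Per kilobase of exon, the ratio of S100A4 to S100A6 was 1.32 ± 0.186 in controls and 1.34 ± 0.0825 with the plasmid (SD, n = 3), and the libraries of the groups overlapped in it.

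S100A14, an epithelial S100 protein that binds calcium weakly, stood at 9.14, 7.61 and 8.95 CPM in controls and at 152.5, 161 and 153 CPM with the KDM4A plasmid. All 3 KDM4A libraries were again above all controls, and the log2 fold change was 4.18 (SE 0.07). S100A9 differs from the others in its starting point. As the partner of S100A8 in calprotectin, it is a protein of neutrophils and inflamed epithelium. It had 0, 0 and 1 counts in the controls and 47, 69 and 41 counts, or 2.74, 2.92 and 2.89 CPM, with the plasmid. Pooled over libraries this is 1 count against 157, a ratio of 177 with a 95% counting interval of 31.3 to 7034. The single count came from control replicate 3, and without that library the controls hold 0 counts. With those controls set at a floor of 3 counts the ratio was 37.3, which is not a lower limit.

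S100A10 and S100A11, at the left end of the cluster, had the highest levels of the 10 in controls and differed by less than S100A4, S100A6 and S100A14. S100A10 forms a complex with annexin A2 at the plasma membrane and has lost the ability to bind calcium. It stood at 64.5, 57.4 and 67.7 CPM in controls and at 533, 482 and 504 CPM with the plasmid. The groups were well apart, with a log2 fold change of 3.0 (SE 0.07), and the control libraries varied more than counting alone gives (coefficient of variation 8.37%, against 2.77% from counting). S100A11, a binding partner of annexin A1, stood at 23.8, 25.8 and 27.6 CPM in controls and at 106, 105 and 103 CPM with the plasmid. Its log2 fold change of 2.02 (SE 0.06) was the smallest of the 8 genes whose groups did not overlap.

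S100A2, which is known from squamous epithelium, stood at 3.59, 2.32 and 3.86 CPM in controls and at 17.2, 17.2 and 18.5 CPM with the plasmid. The log2 fold change was 2.43 (SE 0.13), and control replicate 2 lay low, giving the controls a coefficient of variation of 25.2% against 12.2% from counting. S100P, first found in placenta and known in pancreatic and colorectal tumours, stood at 4.86, 4.65 and 4.30 CPM in controls and at 26.4, 23.7 and 24.5 CPM with the plasmid. It had a log2 fold change of 2.43 (SE 0.10), the same as S100A2 and below S100A4, S100A6, S100A14 and S100A10 on chromosome 1.

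S100A13 and S100A1 showed no separation of the groups. S100A13, which takes part in the release of FGF1 from cells, stood at 5.02, 4.45 and 4.65 CPM in controls and at 5.12, 4.96 and 5.65 CPM with the plasmid, with a log2 fold change of 0.15 (SE 0.13). S100A1, known from heart and skeletal muscle, stood at 0.740, 0.692 and 0.527 CPM in controls and at 0.407, 0.466 and 0.706 CPM with the plasmid, with a log2 fold change of -0.34 (SE 0.33). S100A1 rested on 40 and 28 counts in all, and a difference of this size was not detectable at this depth. The spans of the genes, introns included, overlap by 3435 bases on opposite strands. That is more than the exon length of S100A1 (559 bases) or S100A13 (477 bases), so not all of it is exon. The strand setting of the counting is not given, so reads from any shared exon cannot be told apart. The span of S100A4 likewise shares 1930 bases with that of S100A3 on the same strand. The 16 S100 pseudogenes of the table held 1 count in the controls and 1 with the plasmid.

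Compared per length, as RPKM (CPM divided by exon length in kilobases), the order of the levels changed between the groups. In controls S100A10 came first at 94.2 ± 7.88 RPKM, then S100A11 at 45.7 ± 3.31 and S100A4 at 14.5 ± 0.939 RPKM. S100A6, S100A13 and S100P followed at 11.05, 9.87 and 9.77 RPKM, and S100A6 and S100A13, and S100A13 and S100P, did not differ beyond their spread. S100A14 (8.13 RPKM), S100A2 (3.34 RPKM), S100A1 (1.17 RPKM) and S100A9 (0.0255 RPKM) came last, each below the one before it in every library. With the KDM4A plasmid the order was S100A10 at 754 ± 38.15, S100A4 at 584.5 ± 18.2, S100A6 at 438 ± 16.2, S100A11 at 186 ± 2.65 and S100A14 at 147.5 ± 4.71 RPKM. S100P (52.8 RPKM), S100A2 (18.1 RPKM), S100A13 (10.99 RPKM), S100A9 (4.98 RPKM) and S100A1 (0.942 RPKM) followed, and every neighbour in this order was apart from the next in all 3 libraries.

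The 10 genes together held 0.0125% ± 0.000646 (SD, n = 3) of a control library's counts and 0.1285% ± 0.00191 of a KDM4A plasmid library's. S100A10 was the largest contributor to the summed RPKM of the 10 in all 6 libraries, at 47.6% ± 1.36 in controls and 34.3% ± 0.974 with the plasmid. S100A11 went from 23.2% ± 1.71 to 8.47% ± 0.203 of that sum. S100A4 moved the other way, from 7.33% ± 0.451 to 26.6% ± 0.352, and S100A6 from 5.59% ± 0.433 to 19.9% ± 0.951. The make-up of the summed RPKM of the 10 thus moved from S100A10 and S100A11 toward S100A4 and S100A6.

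**Figure D2:**
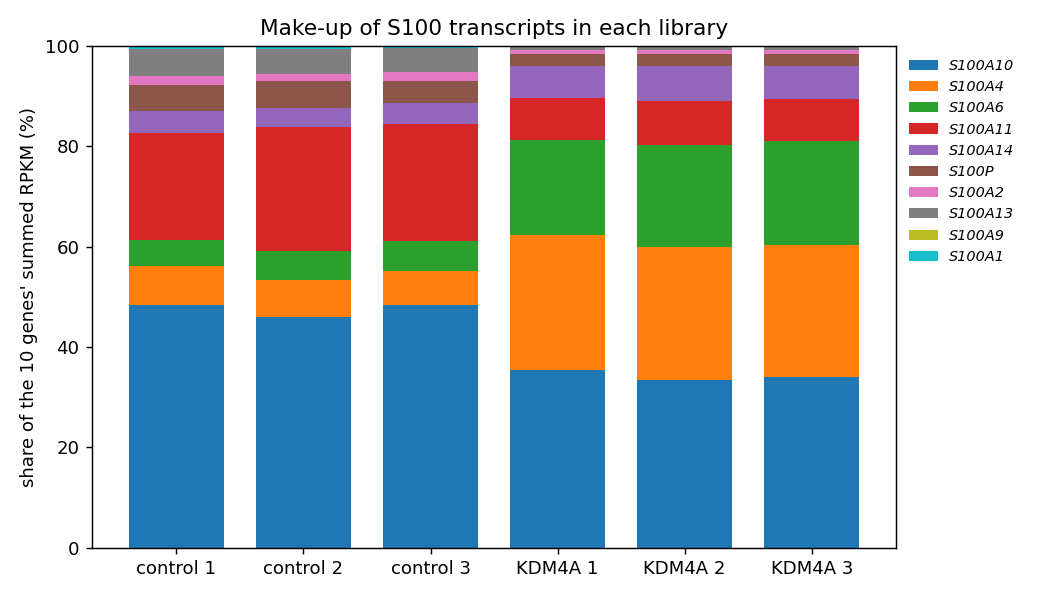
Share of the summed RPKM of the 10 S100 genes held by each gene in each of the 6 libraries, as stacked bars that start at 0. S100A10 is the largest in every library, and S100A4 and S100A6 take larger shares in the 3 KDM4A plasmid libraries.

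Among the 11 S100 genes outside the 10, S100A16 and S100A3 had enough counts to test, S100A3 through the KDM4A libraries alone. S100A16, which lies between S100A2 and S100A14, stood at 2.96, 2.47 and 3.38 CPM in controls and at 54.5, 58.6 and 60.1 CPM with the plasmid. On the log2 scale it rose by 4.29 (SE 0.10, edgeR adjusted p = 1.4e-16), higher in 3 of 3 libraries. S100A3, whose span overlaps that of S100A4, had 1, 1 and 2 counts in controls and 33, 50 and 20 with the plasmid (4.72 on the log2 scale, SE 0.40). Since it could pass the low-count filter only where it is high, no test is given for it. The rest were too low to test. S100A5 had 0 control counts and 20 with the plasmid. Its ratio was 7.52 with the controls set at a floor of 3 counts, and the lower 95% counting limit was 5.565. S100A8, the partner of S100A9, had 0 and 8. S100Z had 0 and 6, S100A7 and S100A12 had 0 and 1 each, S100B had 3 and 2, and S100A7A, S100A7L2 and S100G had 0 in all libraries.

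Most neighbouring genes differed far less. Of 142 genes on chromosome 1 that lie between the S100 genes or within 500 kb of them, 31 could be tested, and 17 were higher, 5 lower and 9 did not pass, beside backgrounds of 40.0% and 38.6%. Of the 17, 3 had passed the low-count filter through the KDM4A group alone, as had 1137 of the 6867 genes higher in all. The median log2 fold change of the 31 was 0.27. In the flanks outside the S100 stretch, 23 protein-coding genes were tested with a median of 0.25, beside 0.04 over all 13680 protein-coding genes tested. The lowest was GATAD2B at -0.90. The nearest tested gene on the left, THEM4, stood at -0.11 on the log2 scale (SE 0.07, edgeR adjusted p = 0.13), and the nearest on the right, CHTOP, rose by 0.36 (SE 0.05, edgeR adjusted p = 6.9e-06).

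The stretch between S100A11 and S100A9 was nearly silent: 48 of its 65 genes had 0 counts in all 6 libraries, beside 26695 of all 60664 genes. Of its 47 protein-coding genes 33 had 0 counts, beside 2529 of all 19966. TCHH and FLG-AS1 could be tested, FLG-AS1 through the KDM4A libraries alone. TCHH, a gene of the hair follicle that begins with an S100-like domain, went from 0.728 to 2.13 CPM (on the log2 scale 1.49, SE 0.28, edgeR adjusted p = 8.6e-05). The long noncoding gene FLG-AS1 had the largest difference of all chromosome 1 neighbours, from 1 count to 132, a ratio of 149 with a 95% counting interval of 26.2 to 5921. The largest fall was in the noncoding gene ENSG00000272654 (-1.76 on the log2 scale, SE 0.18, edgeR adjusted p = 1.0e-07). Inside the cluster, the noncoding gene ENSG00000285867 between S100A2 and S100A14 had 3 counts in controls and 48 with the plasmid (4.01 on the log2 scale, SE 0.53). It was singled out with its values known, and no test is given since it passed the filter through the KDM4A group alone. The difference was uneven over short distances in the cluster: S100A14 and S100A13 lie 1.80 kb apart with log2 fold changes of 4.18 and 0.15.

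**Figure D3:**
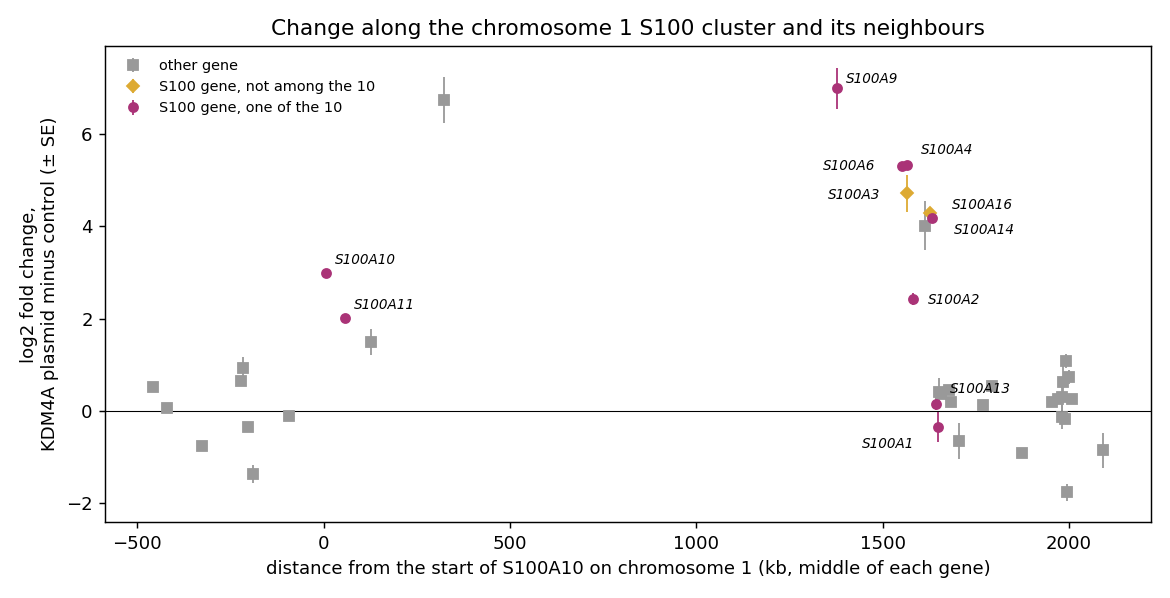
Log2 fold change (KDM4A plasmid minus control, with its SE) of the tested genes reported here from 500 kb left of S100A10 to 500 kb right of S100A1, against distance from the start of S100A10 in kb. The S100 genes from S100A9 to S100A14 stand above nearly all other genes, S100A13 and S100A1 lie near 0, and the points of S100A9 (6.99) and of the grey gene at 6.73, FLG-AS1, rest on 1 control count each.

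Around S100P on chromosome 4, 16 of 31 genes within 500 kb could be tested, and 10 were higher, 2 lower and 4 did not pass, beside backgrounds of 40.0% and 38.6%. Of the 10, 2 (ENSG00000287331 and CCDC96) had passed the filter through the KDM4A group alone. The median log2 fold change of the 16 was 0.30. The nearest tested genes were ENSG00000170846 (0.29, SE 0.07, edgeR adjusted p = 9.9e-04) and MRFAP1L1 (0.16, SE 0.07, edgeR adjusted p = 0.042). The 12 protein-coding genes ran from -0.37 in KIAA0232 to 1.36 in CCDC96, so all lay below the 2.43 of S100P. The noncoding gene ENSG00000287331 had a larger value, with 8 counts in controls and 125 with the plasmid (4.06 on the log2 scale, SE 0.35), and ENSG00000287104 had the largest fall (-0.86, SE 0.15, edgeR adjusted p = 3.8e-05).

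Genes of S100-binding proteins changed in both directions. Of 20 such genes 15 could be tested, and 7 were higher, 5 lower and 3 did not pass, beside backgrounds of 40.0% and 38.6%, with a median log2 fold change of 0.13. The annexin genes whose proteins bind S100A10 and S100A11 were among the genes that rose. ANXA2, the partner of S100A10, went from 135 ± 12.2 to 783 ± 7.58 CPM (on the log2 scale 2.53, SE 0.07, edgeR adjusted p = 6.4e-16). ANXA1, the partner of S100A11, went from 13.9 ± 1.41 to 118.7 ± 2.31 CPM (on the log2 scale 3.09, SE 0.07, edgeR adjusted p = 1.3e-16). Both were higher in 3 of 3 libraries. In RPKM, S100A10 stood at 1.09 ± 0.0861 times ANXA2 in controls and 1.497 ± 0.0722 times with the plasmid, and S100A11 went from 4.61 ± 0.159 to 2.20 ± 0.0319 times ANXA1. The first ratio was thus higher and the second lower with the plasmid, with no overlap between the groups in either.

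The partners of S100A4 and S100A6 differed far less than the S100 genes themselves. MYH9, the heavy chain of nonmuscle myosin that S100A4 binds, had a log2 fold change of 0.13 (edgeR adjusted p = 0.054), and in 13 other settings its adjusted p ran from 0.032 to 0.23. The RPKM ratio of S100A4 to MYH9 went from 0.341 ± 0.0321 to 12.6 ± 0.863. CACYBP, named for its binding to S100A6, rose by 0.25 (edgeR adjusted p = 0.0044), and the ratio of S100A6 to CACYBP went from 0.121 ± 0.00535 to 4.04 ± 0.226. ANXA11, a further partner of S100A6, rose from 73.8 to 182 CPM (on the log2 scale 1.30, edgeR adjusted p = 6.6e-13). PPP5C, a phosphatase that S100 proteins bind, did not pass (0.04, edgeR adjusted p = 0.46).

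For S100P the partners parted. EZR, the gene of the membrane-to-actin linker ezrin, rose from 130.6 to 326.9 CPM (on the log2 scale 1.32, SE 0.05, edgeR adjusted p = 2.4e-13), whereas S100PBP, named for binding S100P, fell from 82.0 ± 3.57 to 39.6 ± 1.06 CPM (-1.05, SE 0.06, edgeR adjusted p = 1.6e-11). The scaffold gene IQGAP1 fell by 0.25 on the log2 scale (edgeR adjusted p = 3.0e-04). Targets of S100A1 and S100A13 fell as well: the calcium pump gene ATP2A2 at -0.38 on the log2 scale (edgeR adjusted p = 1.9e-06), and SYT1, which takes part with S100A13 in FGF1 release, at -1.60 (SE 0.12, edgeR adjusted p = 7.8e-10). Relative to genes of like exon length, given below, ATP2A2 and IQGAP1 were not lower. RYR2, a calcium release channel and the last of the 5 lower genes, stood at -1.66 (SE 0.25) but passed the low-count filter through the control group alone, so no test is given for it. AHNAK, a scaffold bound by S100A10 with annexin A2, rose by 1.17 (edgeR adjusted p = 1.3e-10), and ANXA6 by 0.82 (edgeR adjusted p = 3.8e-10). FGF1, TRPV5, TRPV6, KCNK3 and RYR1 were too low to test.

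**Figure D4:**
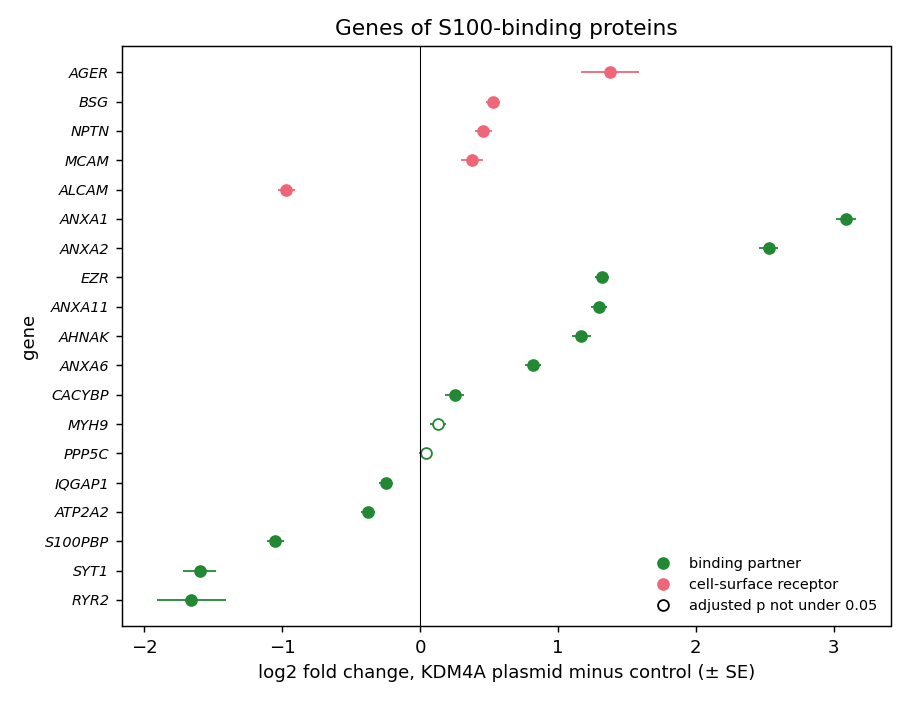
Log2 fold change (KDM4A plasmid minus control, with its SE) of the tested genes of S100-binding proteins and S100 receptors that are reported here, with open circles where the adjusted p was not under 0.05. Partner genes lie on both sides of 0, from RYR2 at -1.66 to ANXA1 at 3.09, and of the receptors ALCAM alone is below 0.

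Of 9 genes of surface proteins reported to bind secreted S100 proteins, 5 could be tested, and 4 were higher and 1 lower, beside backgrounds of 40.0% and 38.6%, with a median log2 fold change of 0.46. AGER, which encodes RAGE, rose from 1.24 ± 0.389 to 3.26 ± 0.409 CPM (on the log2 scale 1.38, SE 0.21, edgeR adjusted p = 1.3e-05). BSG rose by 0.53 (edgeR adjusted p = 7.2e-08), NPTN by 0.46 (edgeR adjusted p = 6.4e-07) and MCAM by 0.38 (edgeR adjusted p = 2.6e-04). ALCAM fell from 141 to 71.9 CPM (-0.97, SE 0.06, edgeR adjusted p = 8.9e-11). TLR4, the other well-known receptor of S100A8 and S100A9, had 0 counts in all 6 libraries, and its co-receptor gene LY96, CD36 and CD33 were too low to test.

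Short transcripts tended to be higher with the KDM4A plasmid: the median log2 fold change was 0.33 in the 1715 tested genes with the shortest exon length, which include 8 of the 10 S100 genes, 0.43 in the next 1715, which include S100A2 and S100A14, and -0.63 among the longest. Taken relative to the median of genes of like length, the log2 fold changes were 5.01 in S100A4, 4.97 in S100A6, 3.76 in S100A14, 2.67 in S100A10, 2.10 in S100P, 2.0 in S100A2 and 1.69 in S100A11. On this scale S100A13 turned from 0.15 to -0.18 and S100A1 stood at -0.67. Of the 5 partner genes that were lower, IQGAP1 turned from -0.25 to 0.38 and ATP2A2 from -0.38 to 0.25. S100PBP, SYT1 and RYR2 stayed below 0 (-0.98, -1.34 and -1.02). MYH9 went from 0.13 to 0.76. Among the nearest neighbours of the S100 genes, CHTOP went from 0.36 to 0.11 and THEM4 from -0.11 to 0.15. ENSG00000170846 went from 0.29 to 0.04 and MRFAP1L1 from 0.16 to -0.2.

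Leaving out S100 genes and genes without a symbol, the tested protein-coding genes with a pattern most like that of S100A4 were ICAM1, KLK6 and KLK10, by the root mean square distance over 6 libraries between profiles of log2(CPM + 0.5) minus the control mean, among 13618 candidates. The distances were 0.134, 0.160 and 0.206, and the genes went from 2.61 to 107 CPM, from 1.60 to 76.1 CPM and from 1.69 to 70.1 CPM. Those most like S100P were ZNF785, TNFRSF9 and NBL1, with distances of 0.0371, 0.0627 and 0.0641. ZNF785 went from 0.570 to 4.85 CPM, TNFRSF9 from 4.17 to 23.4 CPM and NBL1 from 10.6 to 55.1 CPM. Their fitted log2 fold changes were 3.09, 2.49 and 2.38, beside 2.43 in S100P. The added 0.5 narrows differences at low levels, so the likeness of ZNF785 rests in part on it.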

How the data were processed

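RNA was measured in 6 libraries, 3 per group, by the labels. The authors deposited a table of raw read counts per gene, with gene types, exon lengths and GRCh38.p13 locations, per the file headers. HISAT2, HTSeq and GRCh38 were used per the submitters' processing notes. Neither tool versions nor the use of strand in counting is given in the sources used here. Library totals, 14284240 to 23905980 counts, set the counting error.

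From the deposited counts, genes were kept with filterByExpr of edgeR 4.0.16 (minimum count 10; R 4.3.3), leaving 17147 genes with 99.8% to 99.9% of counts. TMM factors were 0.970 to 1.03. The 2 groups were compared with edgeR's quasi-likelihood test (robust, no covariate) and Benjamini-Hochberg adjustment over all tested genes at a threshold of 0.05. The procedure was tested on simulated data. CPM are TMM-scaled, and RPKM are CPM per kilobase of deposited exon length. Values are mean ± SD over 3 libraries. Counting intervals are exact binomial at 95% and cover counting error only. Floors set a control group without counts at 3 counts. A ratio to a floor is not a lower limit, since it leaves out the counting error of the KDM4A group.

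The S100 genes and all gene lists were chosen with earlier results of these data known. Text names were taken by rule: all 10 S100 genes, each other S100 gene tested, the nearest neighbours and the largest rise and fall among neighbours, the tested partners and receptors, and the 3 genes most like S100A4 and S100P in pattern. Genes too low to test, the ends of the flanks' ranges and TCHH were named beside them after their values were seen. Some genes the rule or the lists took are counted but not reported here. Alternatives were DESeq2 1.42.0, other scalings, no filter and a stricter one, a replicate block, other windows, and leaving out each library.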

Additional observations from a re-analysis of the deposited data

How the results depend on the processing

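The 8 S100 genes whose groups did not overlap had a positive log2 fold change in all 14 settings that gave a value. Their lowest values, apart from that of S100A9, came from centring on genes of like length. S100A9 ran from 6.55 to 8.75, and its fitted value rests on 1 control count. S100A1 ran from -0.67 to -0.20, and S100A13 from -0.18 to 0.20.

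Without the low-count filter, 7846 of 33969 genes were higher and 7209 lower. Of the other S100 genes, 5 of 8 tested were then higher instead of 2 of 2. Both counts include S100A3, which passed the filter through the KDM4A libraries alone. S100A5, S100A8 and S100Z joined with 0 control counts each. They could only be called higher, so nothing is read from the count. In that setting 2 of 8 receptor genes were lower instead of 1 of 5, with CD36 joining (edgeR adjusted p = 0.0059). The counts of neighbours follow the window. On chromosome 1, 11 of 17 tested were higher and 3 lower within 250 kb, against 17 and 5 of 31 within 500 kb. Within 1 Mb 26 of 62 were higher and 18 lower. Over all tested genes 40.0% were higher and 38.6% lower. On chromosome 4, 1 of 10 was lower within 250 kb, against 2 of 16 within 500 kb.

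A replicate block gave 6741 genes higher and 6501 lower, against 6867 and 6613 without it, and DESeq2 gave 6384 and 6204. With the replicate block 16 of 31 chromosome 1 neighbours were higher and 5 lower, and on chromosome 4 11 of 16 were higher and 2 lower. The labels do not say that a number marks a pair, so the libraries are not treated as paired. The deviations of same-numbered libraries correlated at -0.204, 0.047 and -0.133, and so few values cannot decide whether they are pairs. The median log2 fold change of all genes lay between -0.019 and 0.026 in all settings but that without a filter, where it was 0.12.

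Depth limits S100A1, S100A9, S100A3 and the S100 genes too low to test. Markers of the labelled cell type differ between the groups, and their part in the S100 values was not tested.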

Other observations

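Genes that join an S100-like domain to a long repeat tail, the S100-fused family of the epidermis, lie between S100A11 and S100A9. Of 7 listed, TCHH alone could be tested. FLG, the gene of filaggrin, had 1 count in the controls and 11 with the KDM4A plasmid, RPTN had 0 and 1, and FLG2, HRNR, TCHHL1 and CRNN had 0 in all 6 libraries. FLG-AS1, which runs antisense beside them, had 1 and 132.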
